A study of Mus musculus with 54 samples.

Results

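The 43 collagen genes of the mouse were followed in testis RNA from 4 *Ctcf* and *Boris* genotypes, in 3 germ cell preparations, together with the RNA polymerase II (Pol2) and H3K4me3 peaks at their starts. They were chosen by name alone, as every symbol of the form Col, number, a, number in the count tables, and make up 43 of 23284 genes. All mice were C57BL/6 males of 3 months: the WT (Ctcf+/+ Boris+/+), the CTCF HET, which keeps 1 working *Ctcf* allele (Ctcf+/- Boris+/+), the BORIS KO, which has none of *Boris* (Ctcf+/+ Boris-/-), and the combined mutant CM (Ctcf+/- Boris-/-), labelled DKO. The knockouts are conventional, not conditional. CTCF is a zinc finger protein that binds DNA and shapes chromosome folding, and BORIS (gene *Ctcfl*) is its paralog in male germ cells. Whole testis here means preparations enriched for germ cells, after digestion of the interstitial tissue with collagenase, each pooled from 4 mice, with 3 per genotype. Round spermatids (RS) and spermatocytes (SC) were purified by elutriation and sorting on DNA content, with 3 libraries per genotype and cell type but 2 for WT SC. CM and CTCF HET share the *Ctcf* heterozygosity, and CM and BORIS KO share the loss of *Boris*, while each genotype was set against the same WT libraries.

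Collagens are extracellular proteins whose alpha chains wind into a helix. Fibrillar collagens build the fibrils of connective tissue, type IV collagen forms the sheet-like network of basement membranes, type VI forms beaded microfilaments, and the FACIT collagens sit on the surface of fibrils. In the testis, the basement membrane around each seminiferous tubule is laid down by Sertoli cells and peritubular myoid cells, and fibroblasts between and around the tubules make fibrillar collagen. Germ cells are not known as the main makers of this matrix.

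The total count per library was 10437683 to 42055813 in whole testis, 47740650 to 98545423 in RS and 53337530 to 88946702 in SC. *Ctcf* lay at 39.9 to 47.0 CPM (counts scaled by library total and TMM factor) in WT whole testis and at 22.3 to 30.2 CPM in CTCF HET, and *Rltpr*, the neighbour of *Ctcf*, at 40.9 to 104 CPM in CTCF HET and CM against 0.794 to 1.87 CPM in WT and BORIS KO. *Ctcfl* itself was low throughout, at 0.531 to 0.688 CPM in WT and 0.165 to 0.397 CPM in BORIS KO. Replicate 1 of each whole testis genotype stood apart: its summed collagen level was 1938 to 2810 CPM, against 960 to 1512 CPM in the other libraries, and 29 of 43 members in WT and 31 of 43 in CM were highest in it. In CM RS, replicate 2 stood apart, with a summed spermatogonium marker level of 359 CPM against 18.5 to 61.4 CPM in the other RS libraries. The 3 CTCF HET SC libraries held a count for 23 to 30 collagen genes, against 38 and 39 in WT SC. Replicate 1 was also the deepest whole testis library of each genotype, at 27558314 to 42055813 counts against 10437683 to 17383794 in the others. Counts of called members are also given without replicate 1 for CM and BORIS KO whole testis, and without replicate 2 for CM RS. For CTCF HET SC they are given with single libraries left out. Other gene lists, marker lists and CTCF HET whole testis are not given without replicate 1.

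Collagen RNA was present in whole testis for every member, but the highest levels belonged to FACIT collagens. Per length of exon, *Col22a1* and *Col16a1*, both FACIT collagens, lay at 42.5 and 38.5 CPM per kb in WT, and took 29.2% and 19.4% of all collagen counts after scaling. *Col20a1*, another FACIT member, followed at 17.7 CPM per kb, then *Col2a1*, the fibrillar collagen of cartilage, at 12.9 CPM per kb, and *Col9a3*, a FACIT chain, at 10.0 CPM per kb. The basement membrane chains *Col4a1* and *Col4a2* lay at 6.53 and 5.23 CPM per kb, and *Col15a1*, a multiplexin of the basement membrane zone, at 7.15 CPM per kb. In all, 25 members were above 1 CPM per kb in WT whole testis and 1 was below 0.1, *Col10a1*.

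In whole testis *Col22a1* stood at 685, 297 and 191 CPM in WT, 797, 248 and 287 CPM in CTCF HET, 748, 216 and 154 CPM in BORIS KO and 461, 264 and 135 CPM in CM. *Col16a1* stood at 379, 184 and 216 CPM in WT, 469, 258 and 301 CPM in CTCF HET, 460, 259 and 241 CPM in BORIS KO and 330, 285 and 179 CPM in CM. For both genes replicate 1 was the highest library of each genotype, and all 4 genotypes overlapped. *Col20a1* had 58.5, 83.9 and 80.0 CPM in WT and 33.0, 65.3 and 61.7 CPM in CM. *Col9a3* had 53.5, 40.6 and 21.6 CPM in WT and 37.6, 35.7 and 23.2 CPM in CM. *Col15a1* had 59.9, 46.5 and 29.8 CPM in WT and 60.6, 56.6 and 49.9 CPM in CM. The WT and CM libraries overlapped for each of these genes too, and none of the 5 was called in any whole testis comparison.

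Several members were not low in the purified germ cell fractions, against the label of a stromal gene set. Neither fraction was fully pure by the estimates of the paper, and the purity was lower for SC than for RS. In purified WT RS, 8 members were above 1 CPM per kb and 18 below 0.1, and in WT SC 6 were above 1 and 21 below 0.1. The members above 1 CPM per kb in RS were led by *Col2a1* at 9.53, *Col22a1* at 4.61 and *Col14a1*, a FACIT collagen, at 4.55 CPM per kb. In SC they were led by *Col16a1* at 11.02, *Col2a1* at 4.60 and *Col20a1* at 3.88 CPM per kb. In the same libraries the summed level of 6 fibroblast markers was 1.34 to 2.06 CPM in WT RS and 1.01 to 1.07 CPM in WT SC, against 43.4 to 80.8 CPM in WT whole testis, and *Tcf21* had no count in any SC library. Among these markers *Dpt* was the exception, with a median of 0.659 CPM over RS and 0.865 CPM over whole testis libraries. Peritubular myoid markers summed to 40.2 to 49.0 CPM in WT RS, where *Actg2* made up most of the sum, and 8.33 to 9.32 CPM in WT SC. Leydig markers summed to 1.16 to 1.335 CPM in WT RS and 9.23 to 9.80 CPM in WT SC, Sertoli markers to 0.134 to 0.420 and 1.71 to 1.94 CPM, and macrophage markers to 83.0 to 94.6 and 2.13 to 2.69 CPM. Single genes carried several of these sums. Over RS libraries the median of *Aif1* was 73.8 CPM, and that of *Emr1*, the next macrophage marker, 1.79 CPM. Over SC libraries *Star* had a median of 7.98 CPM, and *Cyp17a1*, the next Leydig marker, 0.267 CPM. Among myoid markers in SC, *Tagln* had 6.57 CPM and *Actg2*, the next, 1.17 CPM. The part of such cells in the collagen levels was not tested. By contrast *Col4a2* had 0.0196 CPM per kb in WT RS and 0.0250 in WT SC, and *Col6a1*, a chain of type VI collagen, 0.0312 and 0.0985 CPM per kb. The purified cells were sequenced from poly(A) RNA on another platform than whole testis, so levels were set side by side across preparations and not tested.

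**Figure D1:**
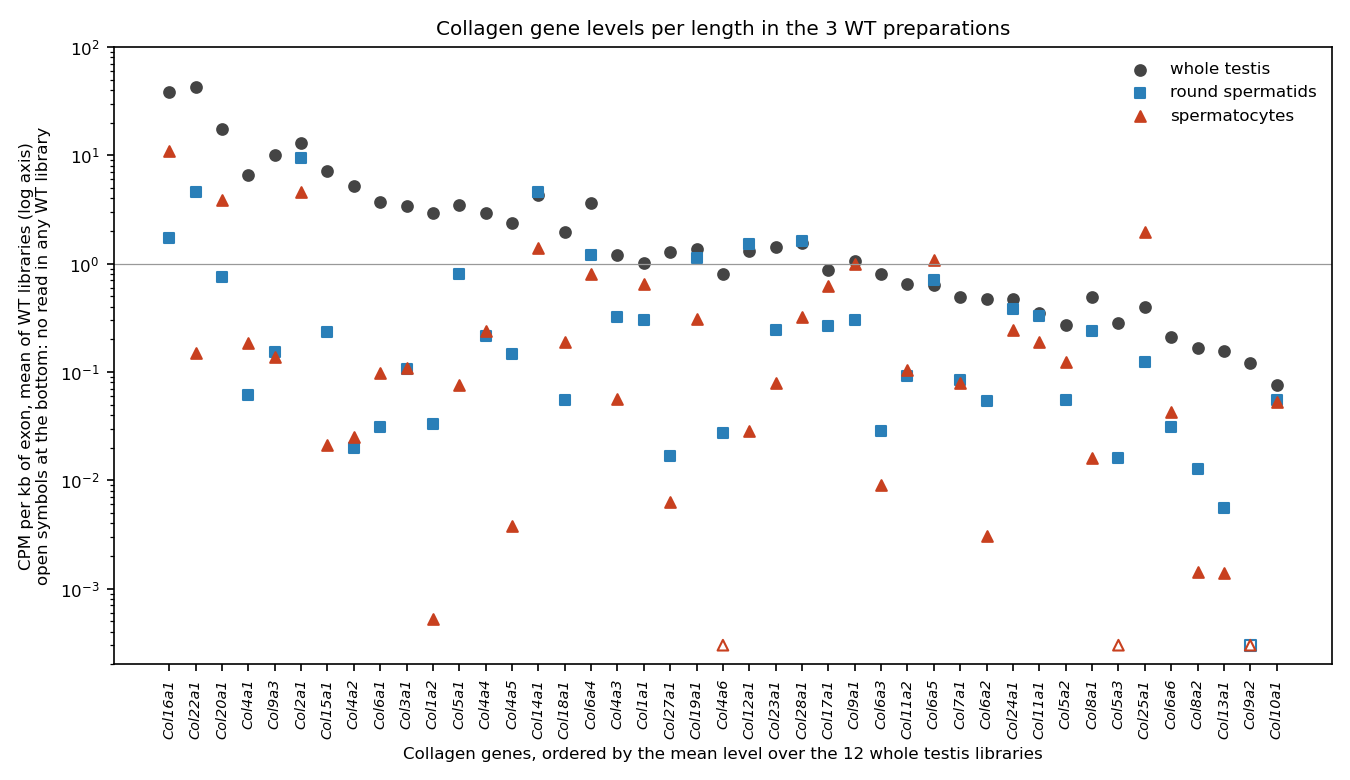
Mean level of each of the 43 collagen genes in the WT libraries of each preparation, in CPM per kb of exon on a log axis; circles are whole testis (n = 3), squares round spermatids (n = 3) and triangles spermatocytes (n = 2), and open symbols mark genes with no count in any WT library of that preparation. *Col2a1*, *Col14a1* and *Col16a1* keep a level above 1 in purified cells, while *Col4a2* and *Col6a1* fall below 0.1.

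Below are the mm9 start sequences that the results turn on, 300 bases each, read on the strand of the gene named. The first 5 cover the annotated transcript start nearest to the highest Pol2 or H3K4me3 peak at that gene. *Col1a2* (chr6:4455452-4455751, plus strand), *Col4a2* (chr8:11312555-11312854, plus strand), *Col4a3* (chr1:82583301-82583600, plus strand) and *Col4a5* (chrX:137909712-137910011, plus strand) had an H3K4me3 peak in CM only. The *Col4a2* window also covers the first base of *Col4a1* and the *Col4a3* window that of *Col4a4*, since these chains are encoded head to head. *Col22a1* (chr15:71784755-71785054, minus strand) held the highest of the Pol2 peaks that lay at a start of a member. *Col2a1* (chr15:97835106-97835405, minus strand) is shown from its first base, as the member with the smallest p in CM and with no peak at a start. Capitals mark CCAAT and TATAAA on either strand, so that CCAAT on the other strand reads ATTGG.
Col1a2: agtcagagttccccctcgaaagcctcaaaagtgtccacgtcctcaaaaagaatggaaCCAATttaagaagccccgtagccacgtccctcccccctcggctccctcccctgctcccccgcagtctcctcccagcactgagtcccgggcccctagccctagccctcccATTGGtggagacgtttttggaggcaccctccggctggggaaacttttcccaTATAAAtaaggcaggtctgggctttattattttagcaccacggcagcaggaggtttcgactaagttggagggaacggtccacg
Col4a2: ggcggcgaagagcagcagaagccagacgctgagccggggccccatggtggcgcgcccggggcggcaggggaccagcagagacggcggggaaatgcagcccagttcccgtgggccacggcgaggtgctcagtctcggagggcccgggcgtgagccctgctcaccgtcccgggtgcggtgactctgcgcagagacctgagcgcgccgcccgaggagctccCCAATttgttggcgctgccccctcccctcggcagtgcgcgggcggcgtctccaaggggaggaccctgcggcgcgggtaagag
Col4a3: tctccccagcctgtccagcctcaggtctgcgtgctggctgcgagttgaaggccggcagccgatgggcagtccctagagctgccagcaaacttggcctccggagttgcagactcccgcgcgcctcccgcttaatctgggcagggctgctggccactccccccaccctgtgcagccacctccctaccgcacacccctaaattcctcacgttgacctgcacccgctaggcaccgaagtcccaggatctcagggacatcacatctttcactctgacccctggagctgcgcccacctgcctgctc
Col4a5: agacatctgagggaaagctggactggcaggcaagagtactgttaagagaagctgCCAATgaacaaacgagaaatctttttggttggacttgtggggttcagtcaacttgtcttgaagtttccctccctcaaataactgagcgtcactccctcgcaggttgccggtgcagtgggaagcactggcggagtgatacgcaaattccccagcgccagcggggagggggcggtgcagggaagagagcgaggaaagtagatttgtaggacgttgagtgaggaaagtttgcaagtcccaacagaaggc
Col22a1: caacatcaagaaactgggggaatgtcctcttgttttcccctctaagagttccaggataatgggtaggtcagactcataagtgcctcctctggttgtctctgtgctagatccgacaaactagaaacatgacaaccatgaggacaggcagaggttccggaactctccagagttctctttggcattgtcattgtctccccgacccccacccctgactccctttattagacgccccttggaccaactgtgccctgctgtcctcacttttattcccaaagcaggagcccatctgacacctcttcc
Col2a1: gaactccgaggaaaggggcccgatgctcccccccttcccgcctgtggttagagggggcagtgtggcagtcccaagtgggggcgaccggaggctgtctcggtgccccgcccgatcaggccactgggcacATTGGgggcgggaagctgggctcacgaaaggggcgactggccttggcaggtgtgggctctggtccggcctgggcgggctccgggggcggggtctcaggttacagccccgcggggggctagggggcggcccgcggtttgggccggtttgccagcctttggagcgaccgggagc
The *Col1a2* window held CCAAT beginning at base -193 and, on the other strand, at -84, with TATAAA at -33 from the transcript start. *Col4a2* held CCAAT at -32, *Col4a5* at -196 and *Col2a1* on the other strand at -122. The *Col4a3* and *Col22a1* windows held neither motif. Over first-base windows of the same length, CCAAT was found for 18 of 43 members and in 38.4% of 20241 genes, TATAAA for 6 members and in 12.9% of genes, and GGGCGG, searched in the same way, for 24 members and in 46.3% of genes. Such a match is a description of the letters in these windows.

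In CM whole testis, 4 of 11 fibrillar, 4 of 6 type IV and 2 of 6 type VI collagen genes rose against WT, while *Col2a1*, *Col28a1* and *Col8a1* fell. A gene was called at an adjusted p (Benjamini-Hochberg over all genes tested) under 0.05 and a fold above 2 in edgeR's quasi-likelihood test, and 13 of the 41 members tested were called, 10 higher and 3 lower. That is 31.7% of the members, beside 21.2% of all 16378 genes tested, and by direction 24.4% of members were higher beside 15.3% of all genes, and 7.32% lower beside 5.90%. The median log2 fold change was 0.35 over the members and 0.00 over all genes. *Col9a2* and *Col10a1* did not pass the filter on low counts. Fewer cells of a type and less RNA per cell cannot be told apart in such bulk preparations.

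Among the 11 fibrillar collagens, 4 rose and 1 fell, with a median log2 fold change of 0.73. *Col1a1*, which encodes the alpha 1 chain of type I collagen, the main fibril of connective tissue, lay at 6.64, 5.50 and 7.91 CPM in WT, 8.64, 9.79 and 8.397 CPM in CTCF HET, 9.19, 12.8 and 11.98 CPM in BORIS KO and 32.6, 15.5 and 18.8 CPM in CM. Every CM library was above every library of the other genotypes, and the log2 fold change against WT was 1.70 ± 0.333 (SE; edgeR adjusted p = 0.0165). *Col3a1*, which encodes type III collagen of soft tissue, had 39.3, 22.7 and 23.3 CPM in WT, 34.7, 25.3 and 23.3 CPM in CTCF HET, 44.5, 40.7 and 38.7 CPM in BORIS KO and 267, 97.5 and 75.6 CPM in CM. All CM libraries were again above all others, with replicate 1 far above its group, and the log2 fold change was 2.32 ± 0.464 (SE; edgeR adjusted p = 0.0166). *Col1a2*, the partner chain of *Col1a1*, rose from 22.7 to 58.0 CPM in WT to 81.9 to 192 CPM in CM (log2 fold change 1.72 ± 0.422 SE; edgeR adjusted p = 0.0233). *Col5a2*, a chain of the type V collagen found inside type I fibrils, rose from 1.62 to 4.51 CPM to 5.14 to 13.0 CPM (1.69 ± 0.477 SE; edgeR adjusted p = 0.0341). Of the others, *Col5a1*, the partner of *Col5a2*, had a log2 fold change of 0.35 ± 0.240 (SE) and was not called.

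*Col2a1* was the fibrillar member that fell. It lay at 92.2, 66.8 and 74.3 CPM in WT, 59.4, 37.4 and 50.3 CPM in CTCF HET, 78.6, 44.2 and 56.5 CPM in BORIS KO and 22.9, 21.2 and 14.0 CPM in CM. No CM library reached the lowest library of another genotype, and the fold against WT was 4.10 lower (log2 fold change -2.04 ± 0.259 SE; edgeR adjusted p = 0.0151), the smallest p of the family in this comparison. *Col28a1*, a collagen with von Willebrand factor A domains, fell from 7.34, 10.4 and 5.07 CPM in WT to 2.96, 2.20 and 1.71 CPM in CM (-1.75 ± 0.364 SE; edgeR adjusted p = 0.0173). Its BORIS KO libraries were split, at 9.19, 2.62 and 2.47 CPM, while CTCF HET held 7.49, 7.90 and 7.80 CPM. *Col8a1*, which encodes a chain of the network-forming type VIII collagen, fell from 2.27 to 2.75 CPM to 1.18 to 1.35 CPM (-1.03 ± 0.313 SE; edgeR adjusted p = 0.0420), just past the fold threshold. The 3 genes that fell were all higher in WT RS than in WT SC, as given below for the purified cells. They were among 15 of 39 members called higher in RS, or 38.5% beside 29.3% of all genes. These 15 also included *Col4a3* and *Col4a5*, which were called higher in CM.

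All 6 type IV chains had a log2 fold change above 0, with a median of 1.51, and 4 were called. *Col4a1*, one of the chains of every basement membrane, had 74.02, 33.5 and 26.1 CPM in WT, 66.2, 41.3 and 37.0 CPM in CTCF HET, 67.6, 55.8 and 48.3 CPM in BORIS KO and 433, 113 and 107 CPM in CM. The CM libraries were above all 9 others, and the log2 fold change was 2.25 ± 0.587 (SE; edgeR adjusted p = 0.0273), the wide error going with the value of replicate 1. *Col4a2*, its partner chain, had 46.3, 33.1 and 24.6 CPM in WT, 41.6, 34.6 and 37.0 CPM in CTCF HET, 44.7, 50.7 and 46.7 CPM in BORIS KO and 174, 70.1 and 66.2 CPM in CM (1.54 ± 0.394 SE; edgeR adjusted p = 0.0257). The groups did not overlap for *Col4a2* either. *Col4a5*, an X-linked chain of specialised basement membranes, rose from 8.93 to 25.6 CPM to 37.1 to 105 CPM (1.86 ± 0.484 SE; edgeR adjusted p = 0.0272). *Col4a3*, another chain of these membranes, rose from 9.32 to 16.9 CPM to 15.7 to 57.4 CPM (1.49 ± 0.443 SE; edgeR adjusted p = 0.0399), and its groups overlapped. *Col4a6* and *Col4a4* were not called, at edgeR adjusted p values of 0.0629 and 0.0737. Per length, the ratio of *Col4a1* to *Col4a2* within each library was 0.982 to 1.55 in WT and 1.56 to 2.42 in CM, and this difference was not tested.

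Type VI collagen was split. *Col6a1* lay at 23.2, 13.5 and 12.6 CPM in WT, 27.7, 20.3 and 19.0 CPM in CTCF HET, 25.3, 31.9 and 28.3 CPM in BORIS KO and 113, 50.01 and 53.3 CPM in CM (2.09 ± 0.368 SE; edgeR adjusted p = 0.0154), and its CM libraries were above all others. *Col6a6*, another chain of the same family, rose from 1.42 to 1.65 CPM to 3.61 to 5.67 CPM (1.43 ± 0.319 SE; edgeR adjusted p = 0.0190). *Col6a2*, which assembles with *Col6a1*, had 3.56 to 4.45 CPM in WT and 4.89 to 8.63 CPM in CM and was not called (0.62 ± 0.315 SE). *Col6a4* had a log2 fold change of -0.73 ± 0.291 (SE), also not called. Of the multiplexins, *Col18a1*, the source of endostatin, had 9.71 to 21.0 CPM in WT and 21.7 to 85.0 CPM in CM, did not overlap and fell just outside the call (1.63 ± 0.527 SE; edgeR adjusted p = 0.0508).

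The 8 FACIT collagens tested gave no call, with a median log2 fold change of -0.40 and 1 member above 0, *Col16a1* at 0.01 ± 0.323 (SE). The 4 transmembrane collagens and *Col7a1*, the anchoring fibril collagen, gave no call either. The members that carried most of the collagen counts were thus not those that were called. With DESeq2 in place of edgeR, 16 members were called, and no called member turned direction under any of the 14 alternatives. The call rests on single libraries: without WT replicate 2, WT replicate 3 or CM replicate 3, no member was called and 11, 3 and 4 of all genes were, with edgeR adjusted p values of the 13 members between 0.0572 and 0.131, and none was called at an adjusted p under 0.001 with the same fold. With replicate 1 of every genotype left out, 15 members were called. The share of all genes called is not given here for DESeq2 or without replicate 1, so these counts stand without a background.

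**Figure D2:**
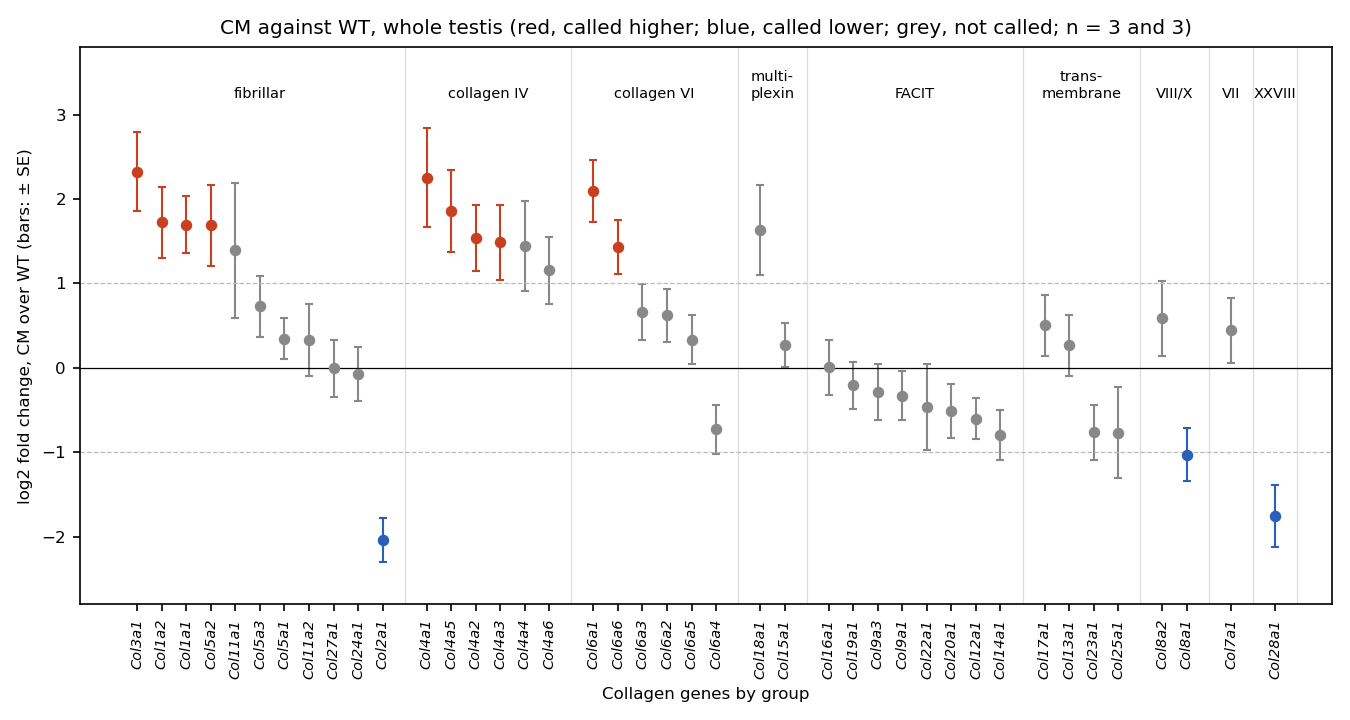
Log2 fold change of CM over WT in whole testis for the 41 collagen genes tested, by collagen group; points are edgeR estimates and bars ± 1 SE (n = 3 and 3). Red points were called higher, blue lower and grey not called, and dashed lines mark a fold of 2. All 6 type IV chains lie above 0, and 7 of the 8 FACIT collagens below it.

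**Figure D3:**
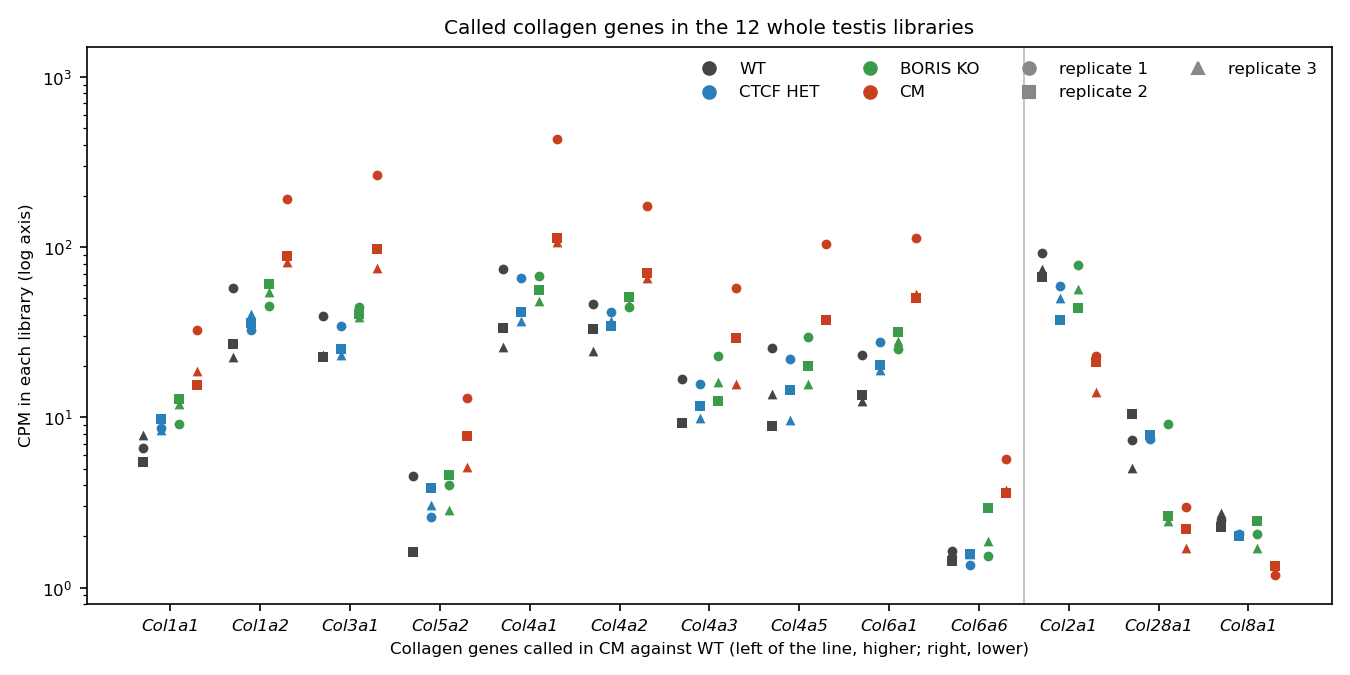
CPM of the 13 collagen genes called in CM against WT, in each of the 12 whole testis libraries on a log axis; colours are genotypes and symbols are replicates. Among the genes called higher, replicate 1 of CM is the highest library for each. For *Col1a1* and *Col6a1* the BORIS KO libraries lie between those of WT and CM.

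The libraries with the same replicate number deviated together in whole testis, so the fit with the replicate number as a block is given here: it called 17 members, 14 higher and 3 lower, beside 27.0% of all genes. The members it added were *Col18a1*, *Col4a6*, *Col4a4* and *Col11a1*.

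Neither single mutant gave a called collagen in whole testis. In CTCF HET against WT, 0 of 41 members were called in edgeR, beside 0.00621% of all genes, and 0 by DESeq2. At an unadjusted edgeR p under 0.05 were 2 of 41 members, beside 424 of all 16097 genes. In BORIS KO against WT, 0 of 41 were called beside 0.0551% of all genes (0.00612% higher, 0.0489% lower), and 0 by DESeq2. The unadjusted edgeR p was under 0.05 for 5 of 41 members, beside 2717 of all 16344 genes. The median log2 fold change of the members was 0.09 in CTCF HET and 0.38 in BORIS KO, beside 0.01 and 0.03 over all genes. For *Col1a1* the mean was 8.94 ± 0.741 CPM in CTCF HET and 11.3 ± 1.89 CPM in BORIS KO, between 6.68 ± 1.21 CPM in WT and 22.3 ± 9.08 CPM in CM (SD, n = 3). With replicate 1 of every genotype left out, BORIS KO against WT gave 4 called members: *Col1a2* at a log2 fold change of 1.21 and *Col6a1* at 1.20 were higher, and *Col25a1* at -1.44 and *Col28a1* at -1.62 lower. In CM against BORIS KO, which differ in 1 *Ctcf* allele, 0 of 41 members were called beside 0.00600% of all genes. The unadjusted edgeR p was under 0.05 for 13 of 41 members, beside 3594 of all 16655 genes. DESeq2 called 6 members there, the fit with the replicate block 5 (*Col2a1* lower, *Col3a1*, *Col4a1*, *Col4a5* and *Col6a1* higher), and edgeR without CM replicate 2 called 4. The shares of all genes called under these alternatives, and without replicate 1, are not given here. These counts are therefore not read as a result about the members. The interaction of both genotypes was called for 0 of 42 members and 0% of all genes, and by DESeq2 for 0 members. The smallest edgeR adjusted p over all genes was 0.473. Its unadjusted p was under 0.05 for 7 of 42 members, beside 1713 of all 17185 genes.

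Genes that make, fold, anchor and degrade collagen were also called in CM whole testis, where 15.3% of all genes were called higher and 5.90% lower. These calls rest on the same libraries as those of the members: without WT replicate 2, WT replicate 3 or CM replicate 3, 11, 3 and 4 of all genes were called. Of 27 collagen synthesis genes tested, 10 rose and none fell, with a median log2 fold change of 1.01. *Plod2*, a lysyl hydroxylase that prepares collagen for cross-linking, rose from 7.02, 6.67 and 3.61 CPM in WT to 24.2, 17.1 and 26.7 CPM in CM (1.93 ± 0.323 SE; edgeR adjusted p = 0.0154). *Pcolce*, which enhances the cleavage of procollagen, rose from 37.8 to 51.0 CPM to 103 to 252 CPM (1.95 ± 0.340 SE; edgeR adjusted p = 0.0154). Of 15 basement membrane partners, 10 rose and 1 fell, with a median of 1.63. They were led by *Nid2*, a nidogen that links laminin to type IV collagen, at 11.7, 8.93 and 7.39 CPM in WT, 11.2, 12.5 and 8.496 CPM in CTCF HET, 57.7, 40.3 and 39.9 CPM in BORIS KO and 103, 45.5 and 56.1 CPM in CM. *Nid2* was also called in BORIS KO (2.29 ± 0.204 SE; edgeR adjusted p = 0.00891), unlike any type IV chain, and in CM its log2 fold change was 2.82 ± 0.340 (SE; edgeR adjusted p = 0.0151). The laminin chains *Lamb1* and *Lamb2* rose in CM by log2 fold changes of 1.97 ± 0.324 and 1.73 ± 0.285 (SE; edgeR adjusted p = 0.0154 for both).

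Among 8 genes of collagen degradation tested, 5 rose and none fell, with a median of 1.76. *Timp1*, an inhibitor of matrix metalloproteinases and so a brake on degradation, had 0.354, 0.453 and 0.258 CPM in WT and 8.15, 3.301 and 6.15 CPM in CM (3.98 ± 0.459 SE; edgeR adjusted p = 0.0151). *Mmp2*, a gelatinase that cleaves type IV collagen, rose by 1.33 ± 0.275 (log2, SE; edgeR adjusted p = 0.0171). Of 9 receptors 3 rose, the discoidin domain receptors *Ddr2* (1.89 ± 0.396 SE) and *Ddr1* (1.66 ± 0.452 SE) and the integrin chain *Itgb1* (1.72 ± 0.468 SE), and of 7 cross-linking genes 1 rose, the transglutaminase *Tgm2* (1.81 ± 0.310 SE; edgeR adjusted p = 0.0154). Median log2 fold changes of these lists were 0.08 and 0.60.

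Summed levels of fibroblast, Leydig cell and Sertoli cell markers rose in CM, while the sums for peritubular myoid cells, macrophages and endothelium did not. The myoid and macrophage sums were mostly 1 gene each, and 5 of 6 macrophage markers were called higher. Those 2 genes, *Actg2* and *Aif1*, also had medians of 27.2 and 73.8 CPM over RS libraries. In CM whole testis 3 of 6 fibroblast markers rose, and their summed level went from 43.4 to 80.8 CPM in WT to 152 to 293 CPM. For Leydig cells 4 of 6 rose (344 to 582 CPM in WT, 1742 to 3400 CPM in CM) and for Sertoli cells 3 of 5 (37.1 to 51.0 CPM in WT, 65.3 to 143 CPM in CM). Of 6 peritubular myoid markers 1 rose and 1 fell, and their sum, made up mostly of *Actg2*, went from 322 to 341 CPM in WT to 80.8 to 121 CPM in CM. Macrophage markers rose for 5 of 6, while their sum, mostly *Aif1*, was 455 to 619 CPM in WT and 371 to 492 CPM in CM. Endothelial markers gave 1 rise and 1 fall of 5 (34.3 to 59.0 CPM in WT, 31.1 to 50.6 CPM in CM). Of the germ cell lists, spermatogonium markers rose for 2 of 5 (28.5 to 46.9 CPM in WT, 94.4 to 398 CPM in CM), and spermatocyte and round spermatid markers fell for 1 of 6 each, the round spermatid sum going from 11980 to 19380 CPM to 3787 to 11210 CPM. Of 5 red blood cell markers 1 was tested and not called. The part of these cells in the collagen result was not tested.

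Between WT RS and WT SC, 23 of 39 members tested differed, 15 higher in RS and 8 higher in SC. That is 59.0% of members beside 52.3% of all genes, and by direction 38.5% and 20.5% of members beside 29.3% and 23.0% of all genes. *Col12a1*, a FACIT collagen, had 28.2, 22.1 and 18.3 CPM in RS and 0.432 and 0.435 CPM in SC (log2 fold change 5.70 ± 0.256 SE; edgeR adjusted p = 1.36e-06). *Col22a1* had 54.9, 33.6 and 38.8 CPM in RS and 1.33 and 1.39 CPM in SC (4.94 ± 0.253 SE; edgeR adjusted p = 2.53e-06). *Col28a1* had 7.48, 8.64 and 7.42 CPM in RS and 1.64 and 1.48 CPM in SC (2.32 ± 0.199 SE; edgeR adjusted p = 3.37e-05). All libraries of RS lay above both SC libraries for these genes. In the other direction, *Col16a1* had 15.3, 8.09 and 11.3 CPM in RS and 68.7 and 80.1 CPM in SC (-2.70 ± 0.233 SE). *Col25a1*, a transmembrane collagen known from neurons, had 0.666, 1.16 and 1.58 CPM in RS and 20.7 and 15.9 CPM in SC (-4.04 ± 0.350 SE), and *Col20a1* 3.83, 2.27 and 3.301 CPM against 15.02 and 17.6 CPM (-2.39 ± 0.222 SE). *Col2a1* was higher in RS at 79.4, 48.9 and 44.1 CPM against 27.0 and 28.5 CPM (1.03 ± 0.236 SE; edgeR adjusted p = 0.00594), and *Col8a1* was also called higher in RS (edgeR adjusted p = 0.00622). *Col4a6* had no count in WT SC and *Col1a2* 1 count in 1 of the 2 libraries, so no fold is given for them. Between 17 and 25 members were called when any 1 library was left out, and 12 at an adjusted p under 0.001.

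In purified BORIS KO cells, the FACIT collagens *Col16a1* and *Col22a1* rose in both RS and SC. In RS, 11 of 38 members were called, 10 higher and 1 lower, which is 28.9%, near the 26.9% of all genes, and by direction 26.3% higher beside 13.9% and 2.63% lower beside 13.0%. *Col16a1* had 15.3, 8.09 and 11.3 CPM in WT RS, 27.9, 31.2 and 22.7 CPM in CTCF HET, 59.4, 65.0 and 60.1 CPM in BORIS KO and 21.0, 2.35 and 9.92 CPM in CM. The BORIS KO libraries were above all others, with a log2 fold change of 2.35 ± 0.195 (SE; edgeR adjusted p = 2.34e-05) against WT. *Col22a1* had 54.9, 33.6 and 38.8 CPM in WT, 52.8, 78.1 and 40.6 CPM in CTCF HET, 154, 151 and 167 CPM in BORIS KO and 45.6, 15.5 and 17.2 CPM in CM (1.83 ± 0.156 SE; edgeR adjusted p = 2.77e-05). Here too the BORIS KO libraries stood above the rest. *Col11a1*, a chain of the type XI fibrils of cartilage, fell from 2.50, 3.70 and 3.301 CPM to 0.663, 0.552 and 0.713 CPM (-2.37 ± 0.260 SE; edgeR adjusted p = 9.62e-05). The other calls were *Col20a1*, *Col5a1*, *Col7a1*, *Col17a1*, *Col11a2*, *Col27a1*, *Col18a1* and *Col4a2*, with log2 fold changes of 1.19 to 1.95, and the last at an edgeR adjusted p of 0.0499. With all genotypes in 1 fit, 7 members were called.

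In BORIS KO SC, 7 of 32 members were called, 6 higher and 1 lower, or 21.9% beside 8.43% of all genes (higher 18.8% beside 5.22%, lower 3.12% beside 3.21%). *Col5a1* had 0.622 and 0.665 CPM in WT SC and 2.67, 3.84 and 3.07 CPM in BORIS KO (2.31 ± 0.196 SE; edgeR adjusted p = 2.92e-06). *Col22a1* had 1.33 and 1.39 CPM and 3.62, 4.17 and 3.59 CPM (1.47 ± 0.142 SE; edgeR adjusted p = 5.54e-06), and *Col16a1* 68.7 and 80.1 CPM and 183, 167 and 149 CPM (1.16 ± 0.0984 SE; edgeR adjusted p = 7.73e-06). None of these groups overlapped. *Col7a1*, *Col11a2* and *Col28a1* also rose and *Col11a1* fell (-1.13 ± 0.201 SE). *Col16a1*, *Col22a1*, *Col5a1*, *Col7a1* and *Col11a2* were called higher and *Col11a1* lower in both BORIS KO cell types, each against the WT libraries of that cell type. With all genotypes in 1 fit, *Col16a1* and *Col5a1* were the 2 members called in SC.

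In CTCF HET, *Col16a1* rose in RS and fell in SC. In RS, 3 of 38 members were called, all higher, or 7.89% beside 5.39% of all genes (1.48% higher, 3.91% lower): *Col16a1* (1.19 ± 0.213 SE; edgeR adjusted p = 0.00769), *Col17a1*, a hemidesmosome collagen (1.06 ± 0.301 SE), and *Col1a1*. *Col1a1* had 4.21, 1.05 and 0.725 CPM in WT RS and 9.73, 11.9 and 10.3 CPM in CTCF HET (2.34 ± 0.521 SE; edgeR adjusted p = 0.0167). *Col16a1* alone was called without WT replicate 2, CTCF HET replicate 1 or CTCF HET replicate 2, 6 members were called without WT replicate 1, and with all genotypes in 1 fit none was. In SC, 5 of 32 were called, 2 higher and 3 lower, or 15.6% beside 4.89% of all genes (higher 6.25% beside 2.27%, lower 9.38% beside 2.62%). *Col16a1* fell from 68.7 and 80.1 CPM to 33.9, 23.9 and 25.9 CPM (-1.41 ± 0.176 SE; edgeR adjusted p = 0.00600). *Col2a1* fell from 27.0 and 28.5 CPM to 13.2, 9.84 and 10.0 CPM (-1.33 ± 0.198 SE; edgeR adjusted p = 0.00849), and *Col20a1* from 15.02 and 17.6 CPM to 2.97, 5.22 and 4.85 CPM (-1.90 ± 0.303 SE; edgeR adjusted p = 0.00988). *Col1a1*, at 4.41 and 4.03 CPM in WT and 13.5, 13.8 and 8.24 CPM in CTCF HET, and *Col25a1* rose. None of these groups overlapped, but without CTCF HET replicate 2 no member was called, with an edgeR adjusted p of 0.0553 for each of *Col16a1*, *Col2a1* and *Col20a1*. The difference between the cell types was tested for *Col16a1* and was 2.70 ± 0.327 (log2, SE; edgeR adjusted p = 0.00111).

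The response in RS minus that in SC was tested for each genotype against WT. In CTCF HET, 6 of 39 members were called, 5 higher in RS and 1 lower, beside 23.8% of all genes (17.1% and 6.72%). In BORIS KO, 6 of 39 were called, 1 higher and 5 lower, beside 4.65% of all genes (0.993% and 3.66%), and in CM 1 of 40, *Col12a1*, lower, beside 3.50% (0.0761% and 3.42%). *Col20a1* in CTCF HET, which fell in SC and had 6.41, 6.60 and 6.05 CPM in RS against 3.83, 2.27 and 3.301 CPM in WT RS, gave a difference of 2.98 ± 0.377 (log2, SE; edgeR adjusted p = 0.00117). *Col28a1* in BORIS KO, which rose in SC to 2.60, 3.798 and 3.77 CPM, had 6.93, 6.19 and 6.39 CPM in RS and a difference of -1.52 ± 0.248 (log2, SE; edgeR adjusted p = 0.00454).

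CM gave 0 of 36 called members in RS, beside 0.00654% of all genes. The unadjusted edgeR p was under 0.05 for 1 of 36 members, beside 3136 of all 15298 genes. DESeq2 called 1 member, *Col2a1*. Its libraries had 79.4, 48.9 and 44.1 CPM in WT RS, 33.5, 31.6 and 33.8 CPM in CTCF HET, 107, 81.0 and 79.6 CPM in BORIS KO and 25.8, 5.33 and 17.6 CPM in CM. Each CM library was thus below each library of the other genotypes, the lowest being the replicate 2 that stood apart. Leaving that library out gave no call, and leaving out CM replicate 1 gave 1, *Col22a1*. In CM SC 1 of 34 was called, or 2.94% beside 0.434% of all genes (0.339% higher, 0.0949% lower), again *Col2a1*: 27.0 and 28.5 CPM in WT and 7.21, 7.57 and 6.90 CPM in CM (-1.89 ± 0.146 SE; edgeR adjusted p = 0.0151). The CTCF HET SC libraries had 9.84 to 13.2 CPM and the BORIS KO ones 27.4 to 41.5 CPM. No member was called in CM SC without WT replicate 1, WT replicate 2, CM replicate 2 or CM replicate 3, and 8 were without CM replicate 1 and by DESeq2. *Col2a1* was thus called lower in CM whole testis and CM SC, in separate libraries on different platforms, though both calls rest on single libraries. Fibrillar *Col3a1* and the type IV chain *Col4a1*, at 0.644 to 1.91 and 0 to 1.34 CPM in CM RS, were not called in purified cells of CM. At such low levels, and with 0.00654% of all genes called in CM RS and 0.434% in CM SC, the missing calls do not tell whether these genes changed there.

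**Figure D4:**
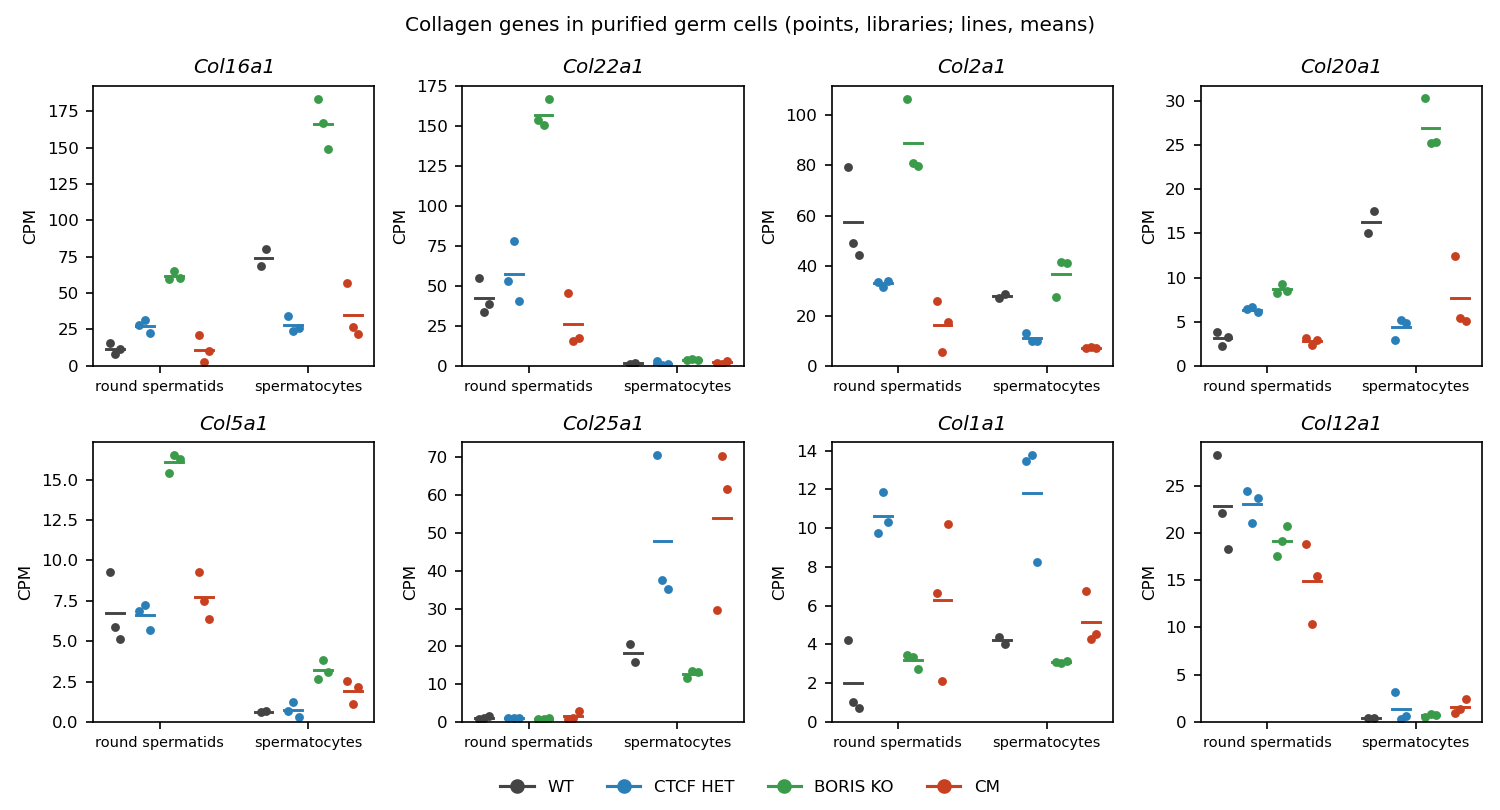
CPM of 8 collagen genes in each library of purified round spermatids and spermatocytes, by genotype; points are libraries, lines are means, and each panel has its own axis from 0. *Col16a1* and *Col22a1* are highest in BORIS KO, and *Col2a1* is lowest in CM in both cell types.

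The chains of type I collagen parted in the purified germ cell fractions. In whole testis *Col1a2* exceeded *Col1a1* per length by 1.55 to 4.72 within each of the WT libraries and by 2.35 to 3.18 in CM. In WT RS the same ratio was 0.0133 to 0.357, in CTCF HET RS 0.0141 to 0.0305 and in BORIS KO RS 0.0185 to 0.0248, and in SC it did not exceed 0.00184 in any library. In SC, *Col1a1* reads came with at most a trace of its partner chain, while in WT RS replicates 2 and 3 the ratio was 0.357 and 0.299, and in CM RS it was 0 to 0.109. In the CTCF HET RS libraries where *Col1a1* was called higher, the summed level of fibroblast markers was 1.80 to 2.07 CPM, against 1.34 to 2.06 CPM in WT RS. Of 5 fibroblast markers tested there, 4 had a log2 fold change above 0 (median 0.50) and 1 was called lower, and of 4 myoid markers 3 were above 0 and 1 was called lower. Their part in the *Col1a1* result was not tested.

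Few collagen starts carried marks of active transcription. Chromatin was immunoprecipitated from the same kind of germ cell-enriched preparation as whole testis RNA, with 1 deposited list of peaks per antibody and genotype, so peaks have no replicate error. In WT, a Pol2 peak lay within 1 kb of an annotated start in 3 of 43 members, beside 40.2% of all 21868 genes, and an H3K4me3 peak, a mark of active promoters, in 4, beside 52.6%. The WT Pol2 peaks were at *Col22a1* (score 1124), *Col19a1* (96.3) and *Col20a1* (79.8), set in a list with a median score of 143. The WT H3K4me3 peaks were at *Col22a1* (245 and 76.2), *Col9a3* (155 and 100), *Col18a1* (118) and *Col23a1* (56.8), with a list median of 97.5. *Col16a1* and *Col2a1*, among the highest members in RNA, had neither within 1 kb of a start in WT. A WT H3K4me3 peak of *Col16a1* (127) lay just outside this window, 1085 bp from a start. At *Col22a1* the peaks lay at an internal annotated transcript start, 79853 bp from the first base of the gene, with the WT Pol2 peak at chr15:71782801-71785863. Those of *Col19a1*, *Col20a1* and *Col18a1* were also at internal starts, 134727, 26705 and 77120 bp from the first base.

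In CM an H3K4me3 peak lay at the start of 13 members, or 30.2% beside 57.3% of all genes, and a Pol2 peak at 2, *Col22a1* (score 391) and *Col9a3* (73.7), beside 47.4%. The H3K4me3 peaks in CM and not WT included those of *Col1a2* (chr6:4455255-4456851, score 158), *Col4a1* and *Col4a2* (chr8:11311930-11313495, 116, shared), *Col4a3* and *Col4a4* (chr1:82583319-82584175, 54.4, shared) and *Col4a5* (chrX:137909793-137910583, 64.7). Each overlaps the start window printed above. The shared peaks cannot be given to 1 gene of a pair, since the first bases of *Col4a1* and *Col4a2* overlap by 21 bp and those of *Col4a4* and *Col4a3* lie 72 bp apart. *Col4a6* starts 1309 bp from *Col4a5* and had no H3K4me3 peak. All 13 scored below the median of their list, 185, so none was in its upper part. Of the 10 members called higher in CM whole testis, 5 had an H3K4me3 start peak in CM and not in WT (*Col1a2*, *Col4a1*, *Col4a2*, *Col4a3* and *Col4a5*) and 5 had none in either (*Col1a1*, *Col3a1*, *Col5a2*, *Col6a1* and *Col6a6*). Of the 28 members not called, 5 also had a peak in CM and not in WT (17.9%; *Col16a1*, *Col17a1*, *Col20a1*, *Col4a4* and *Col8a2*). For *Col16a1*, the WT peak 1085 bp from a start overlapped a CM peak that counted as at a start. Over all genes the CM-only peak was found for 21.7% of the 2462 called higher, 4.95% of the 909 called lower and 6.76% of the 12370 not called. None of the 3 members that fell had a start peak of either mark. The WT list holds 34347 H3K4me3 peaks and the CM list 20432, and their depth is unknown.

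**Figure D5:**
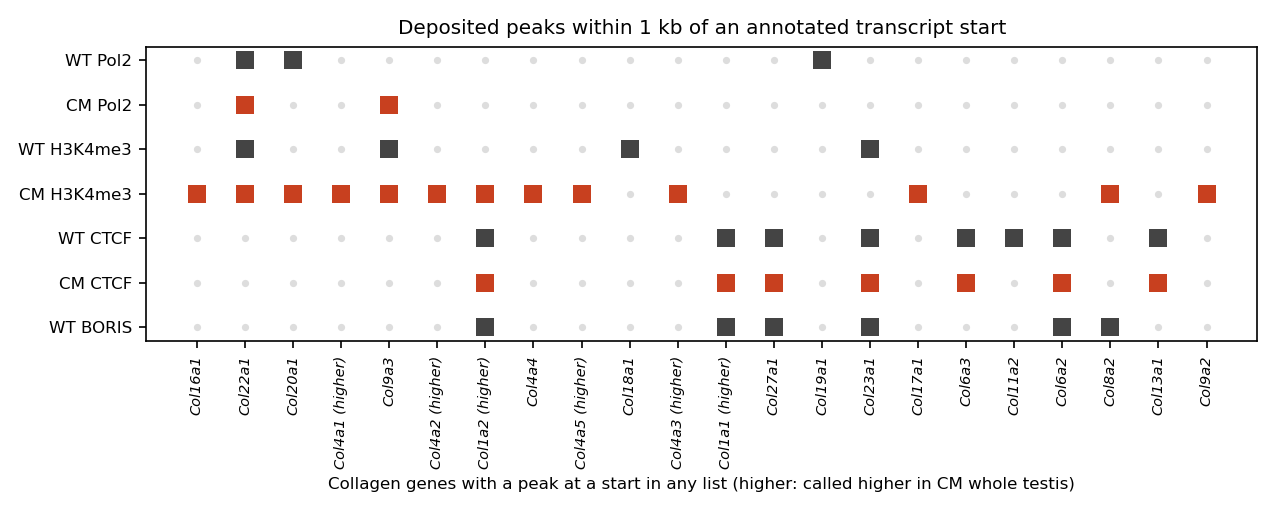
Collagen genes with a deposited peak within 1 kb of an annotated transcript start (22 of 43), by peak list; filled squares mark a peak, dark for WT and red for CM lists, and small dots none. H3K4me3 peaks are seen at 4 members in WT and 13 in CM, while CTCF peaks are at 8 and 7.

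CTCF itself bound at the starts of 8 members in WT, beside 27.2% of all genes, and of 7 in CM, beside 9.60%, and BORIS at 6 in WT, beside 13.8%. The same genes were found in both CTCF lists but for *Col11a2*, the lowest of the WT peaks there (height 102). The highest WT CTCF peaks were at *Col27a1* (3593, where the CM list has 596), *Col13a1* (3558 and 377), *Col6a2* (3134 and 283), *Col1a1* (1999 and 550) and *Col23a1* (1305 and 313). The CM heights were lower at all 7, but so was the median of the whole CM list, 316 against 491, and no normalization of heights is stated. BORIS peaks in WT lay at *Col27a1* (267), *Col6a2* (222), *Col8a2* (103), *Col23a1* (97.0), *Col1a1* (68.0) and *Col1a2* (37.0). Of the 10 members called higher in CM whole testis, *Col1a1* and *Col1a2* had CTCF and BORIS peaks at a start and the other 8 had neither.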

How the data were processed

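RNA of 35 libraries was analysed from 2 deposited tables of raw counts per gene, 1 for whole testis and 1 for RS and SC. The authors aligned whole testis reads (rRNA-depleted, Ion Proton) with TopHat2 and Bowtie2 and those of purified cells (poly(A), HiSeq2000) with STAR to mm9. The counting tool, its annotation and its use of strand are not given in the sources used here, so overlapping and antisense genes cannot be told apart. The submitters' processing notes also name Cufflinks 2.0.0. The ChIP-seq lists were deposited by the authors as peaks with a MACS score for Pol2 and H3K4me3 and a height, a coverage signal split by PeakSplitter, for CTCF and BORIS. How replicate samples were combined is not given in the sources used here.

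Counts were fitted pairwise with edgeR 4.0.16 (R 4.3.3; filterByExpr, TMM, robust quasi-likelihood F test) within each table, with Benjamini-Hochberg adjustment over all genes tested, and a call needed an adjusted p under 0.05 and a fold above 2. The SE is the log2 fold change over the root of F. Level per length is CPM per kb of union exon. Genes were matched by symbol to the mm9 annotation (21868 of 23284, 93.9%, matched once), and a peak counted as at a start within 1000 bp of an annotated transcript start. The alternatives were DESeq2 1.42.0, other size factors, no low-count filter, all genotypes in 1 fit, a replicate block, other thresholds, each library left out, and other peak windows. Where a count of members called under an alternative is given without the share of all genes, it shows only how the count depends on the processing. It is then not a result about the members. Leaving out replicate 1 of every genotype, and the tests of RS minus SC with their alternatives, were chosen after seeing the data. The threshold of the study itself was an adjusted p under 0.001 with a fold above 2. It was made an alternative because an earlier edgeR fit of these data gave no call there, so the threshold of 0.05 was also set with results known. The fits were tested on simulated data.

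Same-numbered whole testis libraries of different genotypes deviated together (18 of 18 pairs with r over 0.1, range 0.121 to 0.631), while RS (4 of 18) and SC (1 of 15) did not. Replicates are separate preparations in the labels. The members and gene lists were chosen with earlier results of these data known. Every member could be named, with values by library for the 8 highest per length in whole testis and for the called members with the 3 smallest adjusted p of each comparison, and 3 genes by p from each list. Values after ± are an SE of the edgeR fit or, where stated, an SD over libraries.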

Additional observations from a re-analysis of the deposited data

Results flagged for a closer look

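Some members responded to a genotype differently in RS and in SC. The values below are the log2 fold change against WT in RS minus that in SC, from edgeR's test of that difference, added after seeing the data. In BORIS KO, 6 of 39 members were called, beside 4.65% of all genes: *Col16a1* at 1.12, *Col28a1* at -1.52, *Col11a1* at -1.30, *Col5a1* at -1.19, *Col12a1* at -1.11 and *Col19a1* at -1.03. *Col16a1* thus rose more in RS, although it rose in both cell types.

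In CTCF HET, 6 of 39 were called, beside 23.8% of all genes. *Col16a1* stood at 2.70, from a rise of 1.19 in RS and a change of -1.41 in SC, *Col20a1* at 2.98, from 0.97 in RS and -1.90 in SC, and *Col11a1* at -1.72. *Col23a1* at 7.69, *Col27a1* at 5.97 and *Col6a3* at 5.38 had no count in any CTCF HET SC library, so these fitted values depend on the prior count and are no bound. The CTCF HET SC libraries detected fewer genes than WT SC, and the part of this in the result was not tested. In CM, 1 of 40 was called, beside 3.50% of all genes: *Col12a1* at -2.58, which was also called without CM RS replicate 2.

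For 5 members, every mutant library lay above every WT library in 1 preparation and below in the other. These differences between preparations were not tested, and how many of all genes show such a pattern was not counted. Some levels were low, as for *Col6a6* with a mean of 0.318 CPM in WT SC. The mean of *Col1a1* in BORIS KO minus that in WT was 4.64 CPM in whole testis and -1.11 CPM in SC. In CM minus WT, *Col12a1* differed by -6.49 CPM in whole testis and 1.17 CPM in SC, *Col18a1* by 30.1 and -0.687 CPM, *Col6a5* by 1.74 and -3.06 CPM, and *Col6a6* by 2.77 and -0.189 CPM.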

How the results depend on the processing

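Of the counts of called members and of starts with a peak, 163 values over all alternatives stayed within 1.5 times the reported count, 42 counts of calls were lower, 19 higher and 8 counts of starts moved, and no single gene changed direction. With 1 library left out, called members numbered 0 to 13 in CM against WT whole testis (13 with all libraries), 0 to 4 in CM against BORIS KO whole testis (0), 1 to 6 among the CTCF HET RS genes (3), 0 to 1 in CM RS (0), 0 to 6 in CTCF HET SC (5), 0 to 8 in CM SC (1), and, for RS minus SC, 4 to 11 with CTCF HET (6), 0 to 7 for the BORIS KO (6), and 0 to 2 for CM (1). For these last 2 counts 0 was reached without WT SC replicate 2 and, in CM, also without 6 other libraries. Ranges stayed within 1.5 times at 10 to 15 in BORIS KO RS, 7 to 8 in BORIS KO SC and 17 to 25 in WT RS against SC.

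At an adjusted p under 0.001 with the same fold, 0 members were called in CM whole testis, CTCF HET RS, CTCF HET SC, CM SC and all 3 tests of RS minus SC, 5 in BORIS KO RS and 12 in WT RS against SC. With no fold threshold, 7 were called in CTCF HET RS and 17 in BORIS KO SC. DESeq2 called 6 in CM against BORIS KO whole testis, 1 in CM RS, 8 in CM SC and 2 in CM for RS minus SC. With all genotypes in 1 fit, the counts were 3 in CM against BORIS KO whole testis, 0 in CTCF HET RS, 7 in BORIS KO RS, 1 in CM RS, 2 in BORIS KO SC, 3 in CM SC, and 3, 0 and 0 for RS minus SC in CTCF HET, BORIS KO and CM. The replicate block gave 5 called members in CM against BORIS KO whole testis and 17 in CM against WT. In purified cells, where the numbers do not pair the libraries, the block gave 3 in BORIS KO and 0 in CM for RS minus SC. Leaving out replicate 1 of every genotype gave 4 in BORIS KO against WT and 4 in CM against BORIS KO, both in whole testis. The causes of these changes were not tested, and the shares of all genes called under these settings are not listed beside them.

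Starts with a WT Pol2 peak fell from 3 to 0 when only the first base of the gene counted and to 1 in the upper 50% of scores, and those with a CM Pol2 peak from 2 to 1 in both cases and with 50% of the peak inside the window. Starts with a WT H3K4me3 peak went from 4 to 7 within 2 kb and to 2 at the first base, and none of the 13 in CM was in the upper 50% of scores. Small groups and the spread of replicate 1 limit the whole testis result, low counts the purified cells, and unreplicated lists the peaks.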
